A study of Homo sapiens with 2 samples.

Results

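The genes of the MYC family and of the 8q24 locus that holds MYC and PVT1 were examined for DNase I hypersensitive sites in Saos-2 and U2OS, both established human cell lines from osteosarcoma. The members were 8 genes of 59679 in the RefSeq table: MYC, PVT1, MYCN, MYCL, MAX, MXD1, MXI1 and MNT. DNase I cuts DNA that is not held in nucleosomes, and a hotspot is a stretch where the authors called an excess of cuts at a false discovery rate of 0.05. Each line was represented by 1 bulk library, made from nuclei digested for 3 min at 37 °C, and the labels name no treatment. With 1 library per line there is no replicate error and no test. Hotspots were taken within 100 kb of each gene span, and for MYC over the whole of chr8:126500000-129500000 (hg38), called the 8q24 window here. These windows held 163 of the 51556 Saos-2 hotspots and 194 of the 63388 U2OS hotspots.

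MYC, MYCN and MYCL are transcription factors that pair with MAX and bind the E-box sequence CACGTG, and they drive cell growth and ribosome production. MXD1, MXI1 and MNT pair with the same MAX partner and repress the genes that MYC activates. PVT1 is a long non-coding RNA gene that lies beside MYC, hosts several microRNAs and contains elements that act on MYC transcription.

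A hotspot is called shared when it overlaps a hotspot of the other line by at least 1 bp. Over all chromosomes 58.1% of Saos-2 hotspots and 46.9% of U2OS hotspots were shared, and 55.1% of the hotspots of both lists came from U2OS. Each hotspot carries a value given by the authors in a column without a header. It was read from its range as the −log10 of an adjusted p and is called significance here. Its median was 4.05 for Saos-2 hotspots and 4.60 for U2OS hotspots. The read depth of each library is unknown, and a deeper library gives more hotspots and higher significance, so significance serves to rank sites within a list. In bulk nuclei, a site that is open in more cells and a site that is cut more often per cell cannot be told apart. Of 12 osteoblast lineage genes, 4 had a hotspot within 1 kb of a gene end in both lines, against 42.7% of all protein-coding genes. Within 10 kb, 10 of the 12 had one in both lines, but the share of all protein-coding genes at 10 kb was not computed. Within 1 kb, SP7, COL1A2, SPP1, IBSP and DLX5 had none in either line. Each line taken alone had such a hotspot at 5 of the 12 genes, against 47.8% of all protein-coding genes in Saos-2 and 53.2% in U2OS. Of 8 genes of other cell types, CD3E alone had one within 1 kb, in both lines, and 4 had one within 10 kb in both, again without a share of all genes to set beside it.

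The 250 bases before the annotated start are shown for 5 genes. At MXD1 they lay inside hotspots of both lines, and at the others a hotspot of a single line reached them. The hotspots at MYCN (significance 1.46), MNT (1.68) and the outermost start of MXI1 (2.09) are weak calls, so these are not clear contrasts between the lines. They come from the RefSeq promoter table (GRCh38.p14), which matched 6 of the 8 members with 9 starts. MYC and PVT1 were not matched. Each sequence is written 5′ to 3′ on the gene's strand, and capitals mark the bases inside the hotspot of the line named.
MXD1, chr2:69914859-69915108, plus strand, hotspots of both lines: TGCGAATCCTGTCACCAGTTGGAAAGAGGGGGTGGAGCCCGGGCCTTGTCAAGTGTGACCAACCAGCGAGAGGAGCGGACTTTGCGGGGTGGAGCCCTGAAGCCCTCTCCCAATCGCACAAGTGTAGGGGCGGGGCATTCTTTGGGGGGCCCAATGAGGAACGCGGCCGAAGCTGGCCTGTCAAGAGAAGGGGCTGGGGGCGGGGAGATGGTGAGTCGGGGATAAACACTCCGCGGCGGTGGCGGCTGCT
MYCL, chr1:39901918-39902167, minus strand, U2OS hotspot: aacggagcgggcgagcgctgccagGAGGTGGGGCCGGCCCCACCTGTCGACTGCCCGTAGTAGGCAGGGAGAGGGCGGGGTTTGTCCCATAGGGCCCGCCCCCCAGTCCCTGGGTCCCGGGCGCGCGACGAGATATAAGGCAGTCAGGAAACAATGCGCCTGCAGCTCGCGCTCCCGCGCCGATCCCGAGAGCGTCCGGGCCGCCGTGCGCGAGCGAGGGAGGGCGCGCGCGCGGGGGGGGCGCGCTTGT
MYCN, chr2:15940300-15940549, plus strand, U2OS hotspot: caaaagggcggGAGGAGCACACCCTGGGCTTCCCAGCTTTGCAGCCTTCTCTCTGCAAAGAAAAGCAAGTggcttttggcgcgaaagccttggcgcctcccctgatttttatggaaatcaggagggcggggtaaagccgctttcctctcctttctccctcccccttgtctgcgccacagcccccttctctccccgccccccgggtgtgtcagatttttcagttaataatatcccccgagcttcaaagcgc
MXI1, outermost start, chr10:110207355-110207604, plus strand, Saos-2 hotspot: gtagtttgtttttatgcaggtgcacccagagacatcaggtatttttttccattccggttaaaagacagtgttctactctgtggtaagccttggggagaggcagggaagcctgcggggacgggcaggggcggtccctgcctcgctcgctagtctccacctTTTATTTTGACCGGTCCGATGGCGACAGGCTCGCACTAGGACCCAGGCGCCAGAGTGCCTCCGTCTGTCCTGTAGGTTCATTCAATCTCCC
MNT, chr17:2401061-2401310, minus strand, Saos-2 hotspot: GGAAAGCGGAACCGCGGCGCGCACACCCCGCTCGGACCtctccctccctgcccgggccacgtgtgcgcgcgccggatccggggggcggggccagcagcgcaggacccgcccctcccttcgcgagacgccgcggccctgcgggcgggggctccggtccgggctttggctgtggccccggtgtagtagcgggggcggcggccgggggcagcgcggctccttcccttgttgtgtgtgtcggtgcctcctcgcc

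The extent of the capitals differs between these promoters. All 250 printed bases of MXD1 lay inside a hotspot in both lines, and 226 bases of MYCL lay inside the U2OS hotspot. The capitals cover 91 bases at MXI1, 59 at MYCN and 38 at MNT. Counting every start of the table, with 250 bases before and 50 after it, 3 of the 9 member starts overlapped a hotspot in both lines. A further 2 did so in Saos-2 alone, 2 in U2OS alone, and 2 overlapped none. Over all 35116 starts of the table, 27.1% overlapped a hotspot in both lines, 3.61% in Saos-2 alone and 7.04% in U2OS alone, and 62.2% overlapped none.

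The E-box letters CACGTG, which read the same on both strands, were searched in the 250 bases before each start. They were present at 1 of the 9 member starts and in 6.34% of all starts in the table. The match was in MNT, beginning at -193 relative to the start, and it can be read in lower case in the sequence above because it lay outside the hotspot. The MNT sequence was also the richest in G and C of the 9, at 78.0% against a median of 58.0% over all starts. The MYCN sequence was close to that median, at 57.2%.

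**Figure D1:**
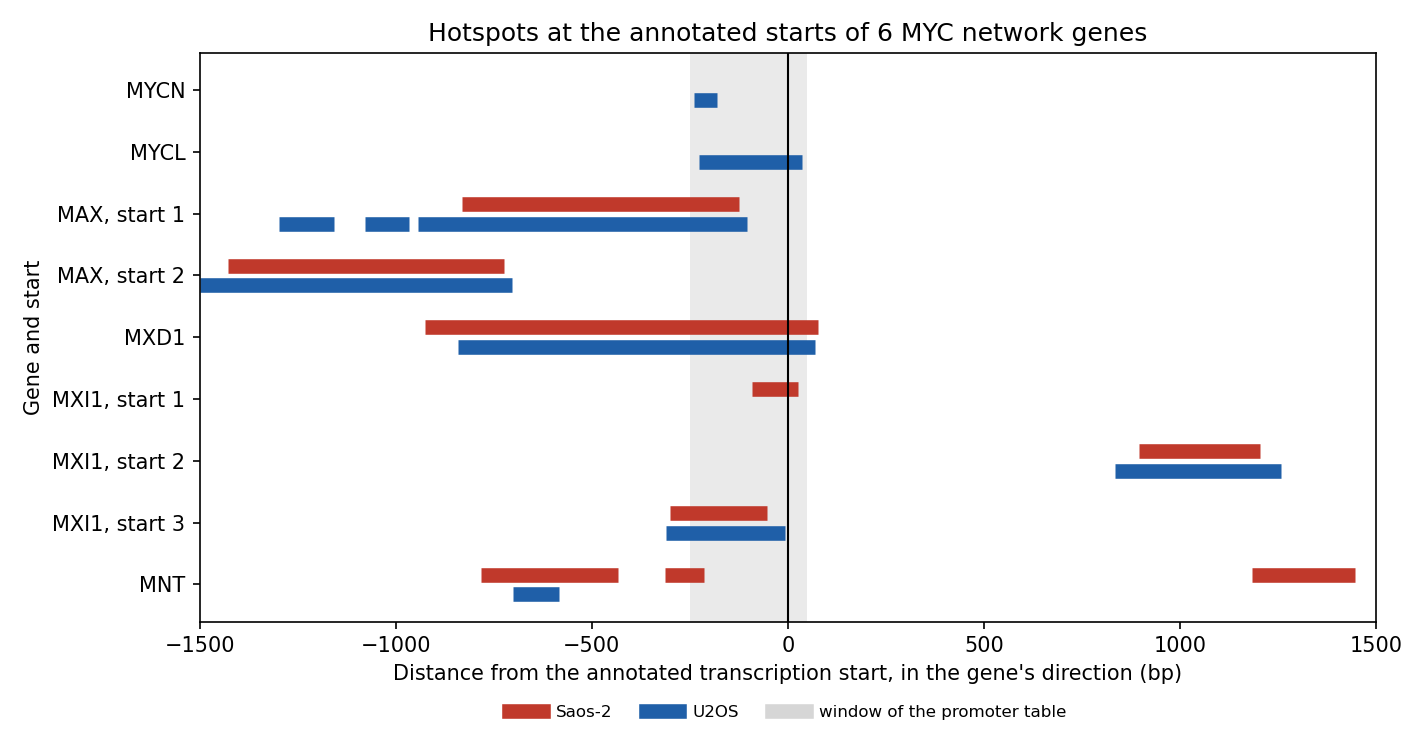
Hotspots around each annotated start of the 6 genes in the promoter table, in the gene's direction (red bars Saos-2, blue bars U2OS), with the 300 bp window of the table in grey. MXD1 is covered in both lines, while MYCN and MYCL have bars for U2OS alone.

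MYC itself, gene 4609 at chr8:127735434-127742951, had weakly significant hotspots in both lines. MYC is transcribed towards higher coordinates. The hotspot before the gene ran from -1354 to -1140 bp of the start in Saos-2 and from -1365 to -1086 bp in U2OS, with a significance of 3.18 and 5.17. The hotspot inside the gene ran from 651 to 851 bp in Saos-2 and from 617 to 907 bp in U2OS, with a significance of 2.65 and 6.46. Another shared hotspot lay just beyond the 3′ end, where Saos-2 had 2.43 and U2OS 3.30. Both lines therefore had the same 3 sites within 10 kb of MYC. U2OS had the higher value at each, as it did at 62.8% of shared sites over all chromosomes. U2OS had a further hotspot of 100 bp that ended 49 bp before the start, with a significance of 1.77, which is close to the lowest value in the list. None of these hotspots covered the first base of the gene span, from which the distances are counted. MYC was not matched in the promoter table, so starts further inside the span, such as near the hotspot inside the gene, were not examined.

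None of the hotspots at MYC ranked high within its list. A significance of at least 3.18 was held by 61.8% of Saos-2 hotspots, and one of at least 6.46 by 36.9% of U2OS hotspots. The strongest site in the 100 kb before MYC was at chr8:127667990-127669072, overlapping LOC105375754. Its significance was 10.0 for Saos-2 and 32.2 for U2OS. From 10 kb beyond MYC to the start of PVT1 there was 1 shared site, at chr8:127756412-127756592, with 3.14 for Saos-2 and 2.35 for U2OS, and U2OS had 2 more hotspots just before it with 5.90 and 1.65. Within 100 kb of MYC, a window that overlaps that of PVT1, 10 of 11 Saos-2 hotspots and 11 of 15 U2OS hotspots were shared. Over all chromosomes the shares were 58.1% and 46.9%.

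PVT1, gene 5820 at chr8:127794524-128101256, is a much longer gene than MYC and held hotspots along most of its length. Inside the 306.7 kb gene there were 28 hotspots covering 12455 bp in Saos-2 and 22 covering 7494 bp in U2OS. U2OS thus supplied 44.0% of them (Wilson 95% interval 31.2 to 57.7%, counting error only), against 55.1% over all chromosomes, a value inside that interval. Of the 28 Saos-2 hotspots 18 were shared (64.3%, against 58.1% over all chromosomes), and of the 22 U2OS hotspots 20 were (90.9%, against 46.9%). When overlapping hotspots of the lines were joined into sites, PVT1 had 18 shared sites, 10 of Saos-2 alone and 2 of U2OS alone. In lists cut to equal length, which drops U2OS hotspots only, 12 Saos-2 hotspots and 0 U2OS hotspots had no overlap. The U2OS-only sites were 85 and 75 bp wide with a significance of 1.57 and 1.60, both near the calling limit.

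The shared sites of PVT1 differed widely in their significance between the lines. Saos-2 had the higher value at 10 of the 18 and U2OS at 8, while over all chromosomes Saos-2 was higher at 37.2% of shared sites and U2OS at 62.8%. The first 3 shared sites after the start of PVT1 had the higher value in U2OS. The site at chr8:127803357-127803750 had 3.79 in Saos-2 and 22.0 in U2OS, and the one at chr8:127819790-127820173 had 3.23 and 9.94. The following 6 shared sites had the opposite order, although the first of them was nearly equal at 17.5 and 17.4. They included chr8:127851243-127852447 with 37.9 in Saos-2 and 7.95 in U2OS, chr8:127853987-127854811 with 19.3 and 4.79, and chr8:127859780-127860108 with 9.84 and 2.32. Further along, U2OS was higher again at chr8:127907825-127908299, with 11.8 in Saos-2 and 28.7 in U2OS, and at chr8:127969350-127969775, with 9.84 and 35.2. The order thus changed several times along the gene.

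**Figure D2:**
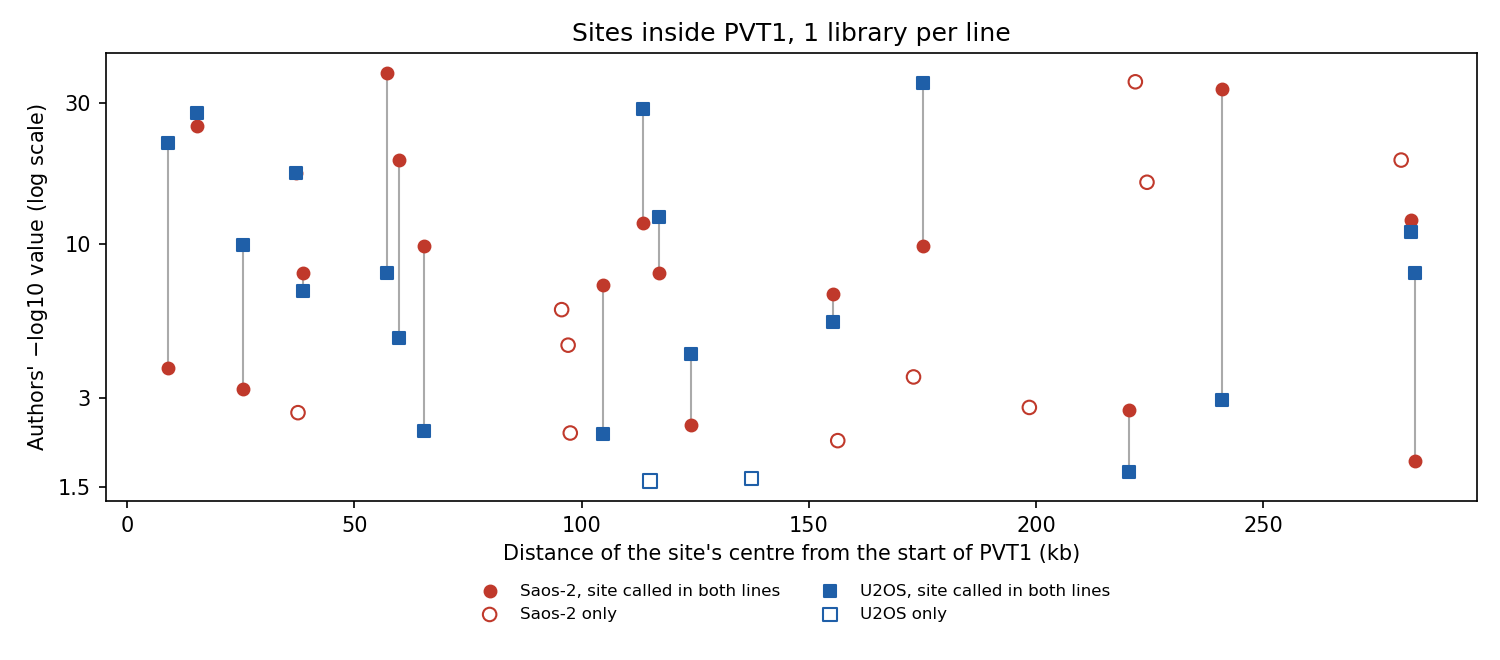
The authors' −log10 value (log scale) of each site inside PVT1 against its distance from the start of PVT1, with filled symbols for shared sites joined by a line and open symbols for sites of a single line. Open red circles (Saos-2 only) number 10 and open blue squares (U2OS only) number 2.

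The distal part of PVT1 carried the most significant Saos-2 hotspot without overlap in the 8q24 window. The Saos-2 hotspot at chr8:128015857-128016858, 1002 bp wide with a significance of 35.5, had no U2OS counterpart, and only 0.799% of Saos-2 hotspots reached that value. The nearest U2OS hotspot was 0.955 kb away and had a significance of 1.68. Another Saos-2 hotspot without overlap at chr8:128018684-128019154 had a significance of 16.2, and one at chr8:128074463-128075202 had 19.3. Between them, the shared site at chr8:128035036-128035613 scored 33.6 for Saos-2 and 2.96 for U2OS. These sites were singled out for their high Saos-2 values. The last 2 shared sites of the gene, close beyond them, had 12.1 for Saos-2 with a slightly lower U2OS value, and 1.83 for Saos-2 with 7.99 for U2OS. The centres of the 4 singled out lie between 281 and 339 kb from the start of MYC.

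The annotated ends of PVT1 had no hotspot within 1 kb in either line. The nearest hotspot beyond its upper end, about 7.6 kb away at chr8:128108853-128109488, was shared and was among the strongest of the locus, where Saos-2 had 34.7 and U2OS 65.0. Only 0.159% of U2OS hotspots reached that value. The microRNA genes hosted around PVT1 were mostly outside hotspots. MIR1208 was the exception, since its whole 73 bp hairpin lay inside a shared hotspot scored 5.12 for Saos-2 and 15.5 for U2OS. MIR1204, MIR1205, MIR1206 and MIR1207 were between 5.85 and 13.5 kb from the nearest Saos-2 hotspot and between 5.86 and 13.7 kb from the nearest U2OS hotspot.

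Over the whole 3 Mb window, Saos-2 had 121 hotspots covering 42907 bp and U2OS had 134 covering 43117 bp. U2OS therefore supplied 52.5% of the hotspots (interval 46.4 to 58.6%), near the 55.1% of all chromosomes. In lists of equal length it supplied 48.9%. Such lists drop U2OS hotspots only and hold equal numbers over all chromosomes, so the 48.9% is not to be set beside the 55.1%. The rest of chromosome 8 differed from the window in this respect, with 1956 Saos-2 and 3281 U2OS hotspots and a U2OS share of 62.7% (61.3 to 64.0%), and the intervals of window and rest did not overlap. In the window 61.2% of Saos-2 hotspots were shared (interval 52.3 to 69.4%), as were 61.3% in the rest of the chromosome. For U2OS the shared portion was 56.0% (47.5 to 64.1%) in the window and 35.9% in the rest of the chromosome, again with intervals that did not overlap. In lists of equal length, 55.4% were shared for Saos-2 and 58.6% for U2OS in the window. Because only U2OS hotspots are dropped, the Saos-2 portion can only fall or stay, so this turn of the order is no finding about the window. Hotspots that lie close together are not independent. The intervals cover counting error and understate the spread between cultures.

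The sharing depended on significance inside the window as it did elsewhere. Among hotspots with a significance of at least 10, 34 of 43 in Saos-2 (79.1%) and 31 of 38 in U2OS (81.6%) were shared. Among weaker ones, 40 of 78 in Saos-2 (51.3%) and 44 of 96 in U2OS (45.8%) were. For strong Saos-2 hotspots the share was 84.8% in the rest of chromosome 8 and 83.6% over all chromosomes, and for strong U2OS hotspots 65.6% and 76.5%. For weaker hotspots it was 57.2% and 52.8% in Saos-2, and 26.7% and 38.3% in U2OS. The counts in the window are small and no interval was computed for them. Its distance from the shares over all chromosomes is a matter of few hotspots, above all for Saos-2 and for strong U2OS hotspots. Hotspots in the window also stood above the whole lists in significance, at a median of 5.59 for Saos-2 and 5.99 for U2OS.

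The balance of line-specific sites varied along the window. Joined into sites, it held 179: 73 shared, 47 of Saos-2 alone and 59 of U2OS alone. The shared portion was 40.8%, against 34.4% over all chromosomes, where 25.6% of sites were of Saos-2 alone and 39.9% of U2OS alone. In the 1225 kb below MYC, which hold LRATD2, PCAT1, CCAT1, CASC8 and POU5F1B, 26 sites were called in U2OS only and 7 in Saos-2 only. U2OS led in the rest of chromosome 8 too, with 2102 U2OS and 757 Saos-2 hotspots that were not shared. Inside PVT1 the order was opposite to that below MYC, with 2 sites in U2OS only and 10 in Saos-2 only. In the 1399 kb above PVT1 the counts were close, with 28 in U2OS only and 30 in Saos-2 only, and with a −log10 of at least 2 their order turned, to 27 and 26. U2OS supplied 63.0% of the hotspots below MYC (51.5 to 73.2%), 44.0% inside PVT1 and 48.8% above it (40.0 to 57.6%), and these intervals overlapped one another. The share over all chromosomes, 55.1%, lay inside each of them. The share below MYC was near the 62.7% of the rest of chromosome 8.

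Among these 3 long segments, density was highest inside PVT1 in both lines. Saos-2 had 2.20 hotspots per 100 kb below MYC, 9.13 inside PVT1 and 4.43 above it. The U2OS values were 3.75, 7.17 and 4.22. The fullest 100 kb bin in Saos-2 was the one starting 365 kb above the MYC start, which spans the end of PVT1, with 14 hotspots against 8 in U2OS. In U2OS it was the bin starting 64.6 kb above the MYC start, inside PVT1, with 11 hotspots against 13 in Saos-2. Of the 30 bins, Saos-2 had more hotspots in 12, U2OS in 14, and 4 were tied.

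**Figure D3:**
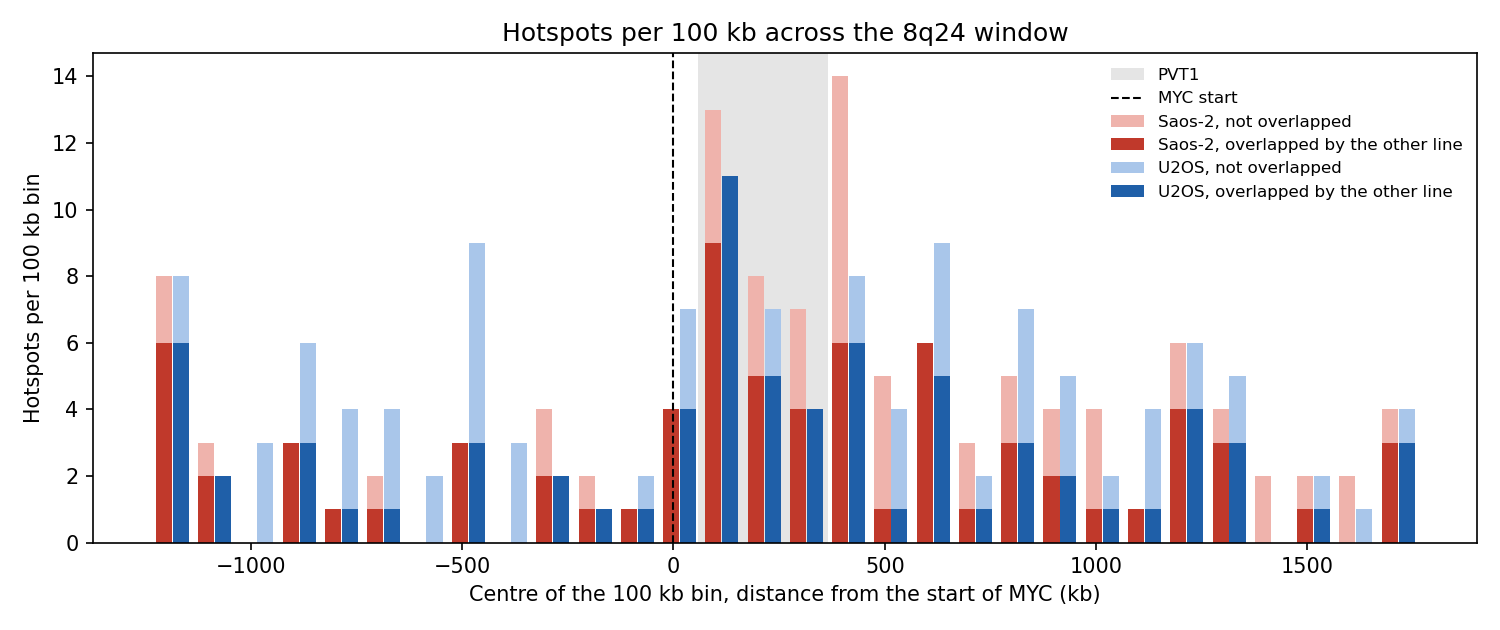
Hotspots per 100 kb bin across the 8q24 window by distance of the bin's centre from the start of MYC (kb), with dark bars for shared and pale bars for other hotspots. The fullest bin lies at the end of PVT1 for Saos-2 (14 hotspots) and inside PVT1 for U2OS (11 hotspots).

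Below MYC, several lncRNA genes held more hotspots in U2OS, as the rest of chromosome 8 did. CASC21 and CASC8 overlap each other, so some of their hotspots count for both. CASC21 contained 1 hotspot in Saos-2 and 6 in U2OS, and CASC8 contained 5 and 8. CCAT1 contained none in Saos-2 and 2 in U2OS. The run of sites of a single line with the most sites was also here, with 6 U2OS sites over 80.0 kb at chr8:127135461-127215488, across CASC19 and CCAT1. Saos-2 had its longest stretch without a hotspot nearby, 147 kb at chr8:127295028-127442297, which held 4 U2OS hotspots. POU5F1B lies in that stretch and contained no hotspot in either line. The longest such stretch in U2OS was 160 kb at chr8:127507597-127667989, which held 1 Saos-2 hotspot.

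The line-specific hotspots of the window were ranked by significance within each list. Beside the 3 inside PVT1, the top 5 for Saos-2 included chr8:129087909-129088540, in LOC124902023, with a significance of 26.3, and chr8:128776619-128777451, between annotated genes, with 18.0. Each had its nearest U2OS hotspot more than 10 kb away. The top 5 for U2OS began with chr8:128576688-128577066, between annotated genes, with 26.9. It was followed by chr8:127340029-127340416 in CASC21 and CASC8 with 14.8, chr8:127206210-127206546, between annotated genes, with 13.9, chr8:126827944-126828330 in LOC105375751 with 13.2 and chr8:128883169-128883662, between annotated genes, with 12.5. The values of the lines are not on a common depth, so these orders describe each list.

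The strongest shared sites lay mainly above PVT1. Ranked by the sum of both values, the first was chr8:128900404-128901163 with 45.1 in Saos-2 and 56.4 in U2OS, about 1165 kb from the MYC start. The site just beyond PVT1 came second. The next, chr8:128390756-128391509, had 57.7 in Saos-2 and 19.5 in U2OS, and the fourth, chr8:128127286-128128236, had 18.1 and 48.6. The fifth was the only one below MYC, at chr8:126628324-126629258 in LOC105375751, with 11.8 in Saos-2 and 52.0 in U2OS. These strong shared sites were far more significant than any site within 10 kb of MYC.

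The paralogues MYCN and MYCL act in neural and other tissues during development. Windows of protein-coding genes held a median of 6 Saos-2 and 8 U2OS hotspots. MYCN, gene 4613 at chr2:15940550-15947004, had 0 Saos-2 hotspots within 100 kb, and the nearest were 132 kb below and 676 kb above the gene. U2OS had 6 hotspots in the same window, with significance from 1.46 to 7.91. The strongest was at chr2:15912206-15912593, 28.2 kb before the MYCN start. At the promoter U2OS had the hotspot of 59 bp shown in the MYCN sequence, with a significance of 1.46, and 98.9% of U2OS hotspots had at least that value. Within 5 Mb to each side U2OS also had 1.83-fold as many hotspots as Saos-2, with 262 against 143, so the surroundings of MYCN leaned the same way. That Saos-2 had none says only that none was called at its unknown depth.

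MYCL, gene 4610 at chr1:39895428-39901917, had 5 Saos-2 hotspots and 12 U2OS hotspots within 100 kb. The promoter hotspot in U2OS ran from -226 to 37 bp of the start and covered it, with a significance of 6.85, and had no counterpart in Saos-2. The shared site at chr1:39893227-39893512, beyond the 3′ end in MYCL-AS1, had 2.23 for Saos-2 and 7.58 for U2OS, and U2OS had another of 2.01 next to it. The strongest shared site, at chr1:39981958-39982394 and 80.3 kb before the start, had nearly equal values of 11.4 and 11.8. U2OS exceeded Saos-2 at all 4 shared sites of the window, and at 62.8% of shared sites over all chromosomes. The strongest U2OS hotspot without overlap was at chr1:39799832-39800245 with 9.91, and the only such Saos-2 hotspot, at chr1:39955011-39955133, had 1.75.

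MAX, the obligate partner of the family and gene 4149 at chr14:65006101-65102695, had similar numbers of hotspots in both lines. Its window held 13 Saos-2 and 14 U2OS hotspots, 8 of each shared, and the order turned to 13 and 10 in lists of equal length and to 13 and 12 with neighbours under 150 bp apart merged. The hotspot over the upper edge of the gene span, where the minus-strand gene begins, measured 707 bp with a significance of 30.7 for Saos-2, and 839 bp with 57.2 for U2OS. From that edge it ran from -418 to 288 bp in Saos-2 and from -531 to 307 bp in U2OS. It covered that edge but neither of the 2 MAX starts in the promoter table, which lie further inside the span. Before the outer one it ended at -124 bp in Saos-2 and at -105 bp in U2OS. U2OS had 2 further small hotspots just before this hotspot, with a significance of 1.90 and 2.12. Inside the gene, the shared site at chr14:65019951-65020251 had 7.59 and 7.89, and U2OS had another with 1.90. Just past the 3′ end Saos-2 had 2 hotspots without overlap, with 3.07 and 2.71. The strongest hotspots of the window without overlap were chr14:65131398-65131688 in U2OS, 28.8 kb before the edge of the span, with 8.92, and chr14:64968763-64968944 in Saos-2, over RAB15, with 3.87. U2OS had the higher value at all 8 shared sites, and at 62.8% of shared sites over all chromosomes. MAX is overlapped by CHURC1-FNTB and FNTB, so sites inside it cannot be assigned to MAX alone.

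Among the 6 members in the promoter table, the antagonist MXD1 had the most significant start hotspot in both lines. MXD1, gene 4084 at chr2:69915109-69942945, is induced when cells leave proliferation for differentiation. Its promoter hotspot measured 1004 bp with a significance of 66.1 for Saos-2, and 912 bp with 98.2 for U2OS, just under the cap of 100. It began at -926 bp of the start in Saos-2 and at -841 bp in U2OS and ended at 77 and 70 bp. No other hotspot lay inside MXD1 in either line. U2OS had one before the promoter with 4.78 and one past the 3′ end, in ASPRV1, with 6.41. The window held 4 Saos-2 and 9 U2OS hotspots, and 3 of each were shared. The strongest without overlap was chr2:69997340-69997639 in U2OS with 14.4, while Saos-2 had only one without overlap, chr2:69973435-69973519, with 2.06.

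MXI1, gene 4601 at chr10:110207605-110287365, has 3 starts in the promoter table, of which Saos-2 had a hotspot at 2 and U2OS at 1 of the same 2. The outermost start was covered in Saos-2 alone, by a hotspot of 118 bp with a significance of 2.09. The innermost start had a shared hotspot before it, with 3.89 for Saos-2 and 7.28 for U2OS. No hotspot overlapped the window of the middle start, but a shared one lay after it at chr10:110211065-110211488, with 6.84 and 10.3. Another shared site at chr10:110221843-110222178 had 3.66 and 10.5, and near the 3′ end U2OS had a hotspot with 1.46. Within 100 kb beyond the 3′ end, U2OS had 12 hotspots and Saos-2 had 4. Within 100 kb before the outermost start, U2OS had 0 and Saos-2 had 2, counting the one at that start. The strongest shared site of the window, with 8.30 and 23.7, overlapped the neighbouring gene SMNDC1. The strongest hotspot without overlap was chr10:110323597-110323862 in U2OS, with 7.90, and in Saos-2 it was the one at the outermost start.

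MNT had more hotspots in Saos-2. MNT, gene 4335 at chr17:2384073-2401060, encodes a widely expressed MYC antagonist. Its window held 11 Saos-2 hotspots and 3 U2OS hotspots, and the U2OS ones were all shared. Inside the gene Saos-2 had hotspots with a significance of 2.44, 4.76 and 4.43 and U2OS had none. Before the start, the shared site measured 352 bp with 7.46 for Saos-2 and 120 bp with 1.79 for U2OS. Saos-2 had a further hotspot from -313 to -213 bp, with 1.68, whose inner bases are the capitals in the MNT sequence. Further out it had 2 more, with 1.67 and 3.37. The strongest site of the window was shared and lay in the neighbour SGSM2, with 9.20 in Saos-2 and 13.9 in U2OS. Within 5 Mb to each side the lines had nearly equal counts, 204 in Saos-2 and 213 in U2OS.

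**Figure D4:**
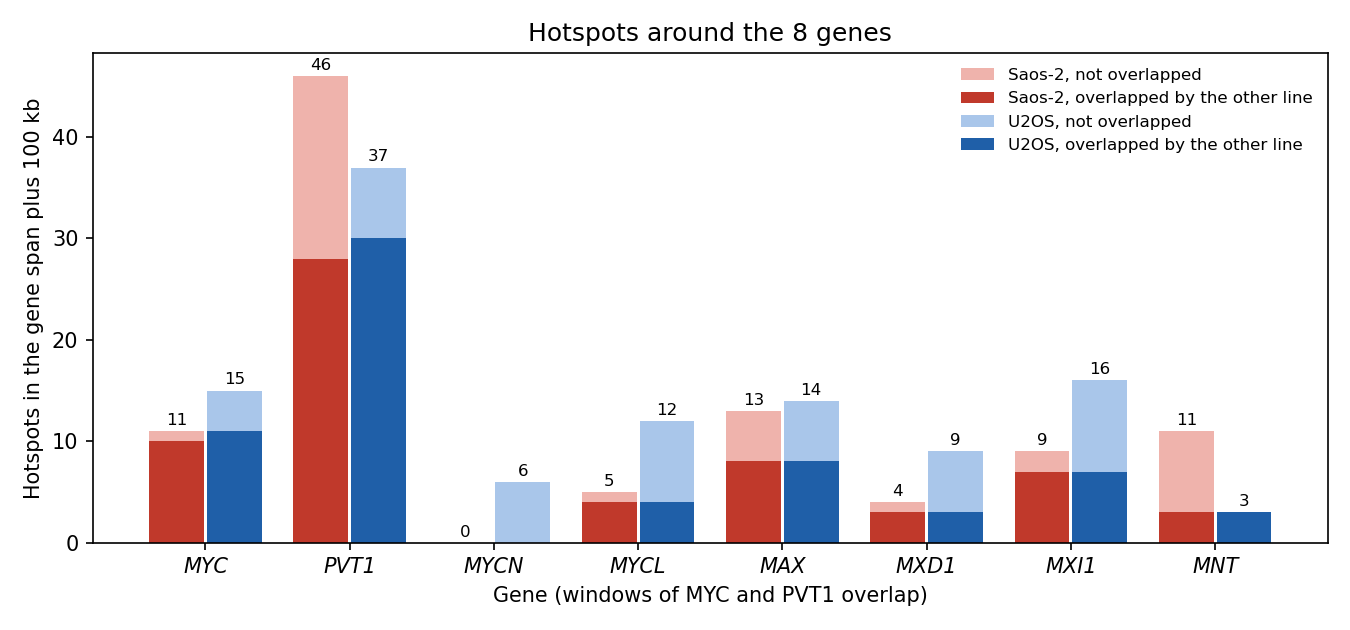
Hotspots within 100 kb of each gene span for Saos-2 (red) and U2OS (blue), with dark bars for shared and pale bars for other hotspots and the total above each bar. MNT (11 against 3) and PVT1 (46 against 37) have more in Saos-2, and the other 6 genes have more in U2OS, although MAX turns to 13 against 10 in lists of equal length.

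The member windows were read against all protein-coding genes treated the same way. U2OS had at least 2-fold more hotspots than Saos-2 in 23.2% of the 19631 gene windows with any hotspot, and Saos-2 had at least 2-fold more in 6.7%. Of the 7 protein-coding members, MYCN, MYCL and MXD1 were in the first class and MNT was in the second. The median ratio of U2OS to Saos-2 over gene windows was 1.17. MAX (1.08) and MYC (1.36) were nearest to it, and MXI1 (1.78), MXD1 (2.25) and MYCL (2.40) were above it. With counts this small, 1 hotspot more or less moves a ratio visibly. Over the 6 windows off chromosome 8, 59.5% of 42 Saos-2 hotspots (interval 44.5 to 73.0%) and 41.7% of 60 U2OS hotspots (30.1 to 54.3%) were shared, and both intervals include the share over all chromosomes. U2OS had the higher significance at 22 of the 25 shared sites in these windows, against 62.8% over all chromosomes, and in the 8q24 window at 38 of 73.

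The wider MYC network was described by the presence of a hotspot within 1 kb of a gene end. Over all 20037 protein-coding genes, 42.7% had one in both lines, 5.07% had one in Saos-2 alone, 10.5% had one in U2OS alone, and 41.7% had none. Of 6 other MAX- and MLX-binding proteins, 4 had one in both lines. MLX, the partner of the glucose-sensing branch of the network, had one in U2OS only, with a significance of 5.77, and MLXIPL had none. Of 20 cofactors and regulators of MYC protein, 17 had one in both lines. In lists of equal length, which drop U2OS hotspots only, 14 had one in both lines and 4 in Saos-2 only. In the full lists, the histone deacetylase HDAC2 had one in Saos-2 only, with 3.98, and the kinase gene CDK9 had none in either line. Of 20 textbook targets of MYC, 16 had one in both lines. ODC1, the first enzyme of polyamine synthesis (2.98), and the cyclin CCND2 (6.38) had one in U2OS only. The amino acid transporter SLC7A5 (1.97) had one in Saos-2 only, and the telomerase gene TERT had none. These shares are descriptions, and the lists hold genes that are active in growing cells of many kinds.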

How the data were processed

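DNase-seq was deposited for 1 library each of Saos-2 and U2OS, as 1 list of hotspots per library. Per the submitters' processing notes, Trimmomatic 0.38, BWA 0.7.15 and hg38 were used. The hotspot caller, read filters and treatment of duplicates are not given in the sources used here. Each deposited hotspot has a −log10 value, from 1.30 (the −log10 of the 0.05 limit) to a cap of 100, in a column without a header, taken as its significance. The deposited score is 10 times that value, within 0.5, and was not used.

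Coordinates were made 1-based. Overlaps, gene windows and counts were computed in Python 3.11.15 with pandas 2.3.3 and NumPy 2.4.6, Wilson 95% intervals with SciPy 1.17.1, and the overlap code was tested on simulated lists. Gene spans, starts and sequences came from RefSeq tables on GRCh38.p14, whose primary assembly is that of hg38. Alternatives were a stricter overlap, a −log10 minimum, merged neighbours, narrower windows, bases covered and lists cut to the length of the shorter by their −log10 value. The members and gene lists were chosen with earlier results of these data known. Named sites were those within 10 kb of a member's ends, the 5 highest per class in the 8q24 window and the highest per class in each other window. Inside PVT1, the sites named are examples chosen after their values were seen. Some genes of the lists are counted but not reported here by name.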

Additional observations from a re-analysis of the deposited data

How the results depend on the processing

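No paired analysis was possible because Saos-2 and U2OS were 1 library each, and for the same reason none was left out. Of 236 values recomputed under an alternative, 215 stayed within the interval or within 1.5-fold of the reported value and 21 moved further. The order of the lines turned for some close values: in lists of equal length the 8q24 window had 48.9% of its hotspots from U2OS and 55.4% of Saos-2 and 58.6% of U2OS hotspots shared, and MAX had 13 and 10 hotspots. Lists of equal length drop U2OS hotspots only, so U2OS counts and the Saos-2 shared portion can only fall or stay in them. MAX had 13 and 12 with neighbours merged and 9 each within 50 kb, and above PVT1 the hotspots without overlap were 26 and 27 with a −log10 of at least 2. Over the 6 windows off chromosome 8 taken within 10 kb, both lines had 47.1% shared and equal counts. When an overlap had to span 50% or more of each hotspot, 45.5% of Saos-2 and 41.0% of U2OS hotspots in the 8q24 window were shared. The segment comparisons were chosen after seeing the data. In lists of equal length, 11 Saos-2 hotspots below MYC and 0 U2OS hotspots inside PVT1 had no overlap. With a −log10 of at least 2, 1 U2OS hotspot inside PVT1 had none. U2OS supplied 59.1% of hotspots below MYC and 39.1% inside PVT1 in lists of equal length. The osteoblast genes with a gene-end hotspot in U2OS fell from 5 to 1 of 12 in those lists. The other 16 values that moved are counts around single genes, 15 of them in a narrower window of 50 kb. Depth is unknown, so a site called in 1 line only is not shown to be absent from the other.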
